A study of Mus musculus with 7 samples.

Results

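The 9 genes described here encode structural, surface, enzymatic and regulatory proteins of myelin and of the mature oligodendrocyte: Mbp, Mobp, Mog, Mag, Opalin, Cldn11, Cnp, Trf and Myrf. They are a list of known myelin genes, and no measured value enters the rule that chose them. The list was, however, chosen with earlier results of these data known. All 9 were found among the 37620 gene identifiers of the count tables, and all 9 were among the 16068 genes with enough counts to be tested.

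The tumours were grown in the brains of nude mice that had been implanted with mouse glioblastoma stem-like cells of neural stem cell origin, taken from the subventricular zone. All cells were kept in neural stem cell culture conditions before implantation. GSC1 tumours (n = 4) came from cells labelled lgT/Ras, and GSC2 tumours (n = 3) from cells labelled shp53, Nf1-/-, CDK4. The tumours of each line are described as independent, and the labels do not say whether each line is 1 clone. All 7 samples analysed here were tumours. Tumours are written below as line and replicate number, so GSC1-3 is replicate 3 of GSC1.

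Myelin is the multilayered membrane that oligodendrocytes wrap around axons of the central nervous system. The cells arise from progenitors that express Pdgfra and Cspg4, pass through a short premyelinating stage, and then switch on the myelin genes under transcription factors that include Sox10 and Myrf. In brain tissue, high levels of these transcripts are a usual sign of white matter. The RNA came from whole tumour tissue, so transcripts of implanted cells and of host brain were counted together, and fewer oligodendrocytes cannot be told apart from less myelin RNA per cell.

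The 7 libraries held 18643155 to 32643408 counts on genes. A list of 6 stem cell and glioma markers was added after the data had been seen. Across the tumours, Sox2 was at 70.7 to 199 CPM (counts per 1000000 counts on genes). Nes was at 116 to 662 CPM and Vim at 1620.2 to 3626 CPM. The levels of Msi1, Fabp7 and Prom1, also on the list, are not given here. Host cells were counted too, so these levels do not measure tumour content. GSC1-3, GSC1-4 and GSC2-3 were relatively poor in long transcripts. Each library was given a length measure: how far its long-transcript genes (8000 bases or more) lay from their average over all libraries, less the same for short ones (2000 bases or fewer), as medians of log2 CPM. It was -0.40, -0.36 and -0.70 in these 3, against 0.02 to 0.64 in the other 4. Both GSC1 tumours of this group also held transcripts of posterior brain regions. The summed level of 11 hindbrain and spinal cord genes was 697 CPM in GSC1-3 and 223 CPM in GSC1-4, against 5.31 to 22.2 CPM elsewhere, and cerebellar neuron genes reached 1414 CPM in GSC1-4, against 38.7 to 261 CPM elsewhere.

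Because the 9 genes moved together across tumours, the sequence before the transcription start was examined for those with an entry in the RefSeq promoter table (build GRCm38.p6), which were 6 of the 9. The windows of 4 of them are shown, 5′ to 3′ along the gene's strand and ending at the start site, with matches to 2 motifs in capitals. The first motif, CTGGCAC with its variant form CTGGTAC, resembles the site of Myrf. The second, ACAAAG with the variant forms ACAATG, then TCAAAG, and lastly TCAATG, resembles the site of Sox10 and other SOX proteins. Both strands were searched. For Mobp and Cnp the last 35 bases lie in an annotated exon and were left out of the print. The windows are Mog at chr17:37023399-37023648 on the minus strand, Mag at chr7:30914923-30915172 on the minus strand (the most upstream of 3 annotated starts), Mobp at chr9:120149492-120149706 on the plus strand and Cnp at chr11:100574689-100574903 on the plus strand.
Mog: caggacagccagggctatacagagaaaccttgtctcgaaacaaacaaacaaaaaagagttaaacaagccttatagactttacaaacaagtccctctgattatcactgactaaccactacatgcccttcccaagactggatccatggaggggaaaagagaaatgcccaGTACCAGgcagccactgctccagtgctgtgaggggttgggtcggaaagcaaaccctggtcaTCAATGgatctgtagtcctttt
Mag: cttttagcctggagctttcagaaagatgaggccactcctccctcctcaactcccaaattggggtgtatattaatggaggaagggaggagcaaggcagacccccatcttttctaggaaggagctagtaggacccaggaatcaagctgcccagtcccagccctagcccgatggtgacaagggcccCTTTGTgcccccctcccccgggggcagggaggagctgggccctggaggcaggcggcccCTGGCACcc
Mobp: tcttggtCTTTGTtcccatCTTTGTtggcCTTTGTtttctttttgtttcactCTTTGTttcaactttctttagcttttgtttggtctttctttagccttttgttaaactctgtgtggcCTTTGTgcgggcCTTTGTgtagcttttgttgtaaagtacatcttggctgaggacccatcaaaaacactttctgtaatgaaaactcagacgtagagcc
Cnp: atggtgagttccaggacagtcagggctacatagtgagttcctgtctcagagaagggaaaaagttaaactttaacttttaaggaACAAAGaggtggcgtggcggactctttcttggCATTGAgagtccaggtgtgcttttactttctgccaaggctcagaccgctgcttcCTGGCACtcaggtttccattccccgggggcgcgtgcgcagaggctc
The Myrf-like letters were found in 3 of the 6 windows of 250 bases, those of Mog, Mag and Cnp, and in 5.93% of 32851 RefSeq promoter windows of the same length. Their first base lay 83 bases before the start in Mog (as GTACCAG, the reverse complement), 9 bases before it in Mag and 81 bases before it in Cnp. SOX-like letters were found in 5 of the 6 windows and in 39.4% of all windows. Mobp held 6 such matches, each read as CTTTGT on the strand shown, between 243 and 115 bases before the start. The GC box GGGCGG was found in 1 of the 6 windows, that of Cnp, against 32.7% of all windows, with both of its matches inside the exon bases not shown. The E-box CAGCTG and the TATA box TATAAA were found in 0 of the 6 windows, against 13% and 12.4% of all windows. These matches describe letters only and were not tested for binding.

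The basic proteins of compact myelin varied widely between tumours. Mbp, which holds the cytoplasmic faces of the myelin membrane together, was measured at 582, 221, 5870.1 and 2500.4 CPM in GSC1-1 to GSC1-4 and at 938, 2939 and 3826 CPM in GSC2-1 to GSC2-3. GSC1-3 was highest and GSC1-2 lowest, a range of 26.6-fold, and the GSC2 values lay inside the GSC1 range. Mobp, a second small basic protein of compact central myelin, was at 154, 51.4, 941 and 430.0 CPM in GSC1 and at 283, 816 and 704 CPM in GSC2. It had the same 3 low tumours as Mbp, namely GSC1-2, GSC1-1 and GSC2-1, and the lines again overlapped.

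The surface and junction proteins shared these low tumours and had wider ranges. Mog, an immunoglobulin-like protein on the outermost myelin surface, was at 15.9, 5.51, 327 and 106 CPM in GSC1 and at 24.3, 93.8 and 140.0 CPM in GSC2. The highest of the 7 values was 59.4 times the lowest. Mag, an adhesion protein on the innermost, axon-facing membrane, was at 74.3, 25.4, 706 and 283 CPM in GSC1 and at 136, 326 and 407 CPM in GSC2, a range of 27.8-fold. Cldn11, the claudin of the tight junctions between myelin layers, was at 74.7, 26.2, 1052 and 319 CPM in GSC1 and at 129.5, 380.2 and 606 CPM in GSC2. Its range was 40.1-fold, and GSC1-3 stood above every other tumour. Opalin, a membrane glycoprotein of oligodendrocytes, was at 3.83, 0.625, 37.8 and 16.1 CPM in GSC1 and at 9.11, 24.0 and 30.3 CPM in GSC2. The lowest value, in GSC1-2, rested on 17 counts, so its 60.5-fold range is the least precise of the 9.

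The enzyme, the iron carrier and the transcription factor had the narrowest ranges. Cnp, a cyclic nucleotide phosphodiesterase of the uncompacted myelin channels, was at 151, 106, 1120.0 and 553 CPM in GSC1 and at 197, 529 and 627 CPM in GSC2, a range of 10.6-fold. Trf, the iron carrier transferrin, which oligodendrocytes and choroid plexus make in the brain, was at 106, 45.9, 317 and 195 CPM in GSC1 and at 125, 231 and 295 CPM in GSC2, a range of 6.92-fold. Myrf, the membrane-bound transcription factor needed for myelin gene expression, was at 22.9, 13.5, 85.5 and 48.0 CPM in GSC1 and at 42.4, 103 and 58.4 CPM in GSC2, a range of 7.58-fold. Myrf was the exception in order, since its highest tumour was GSC2-2, while GSC1-3 was highest for the other 8 genes.

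**Figure D1:**
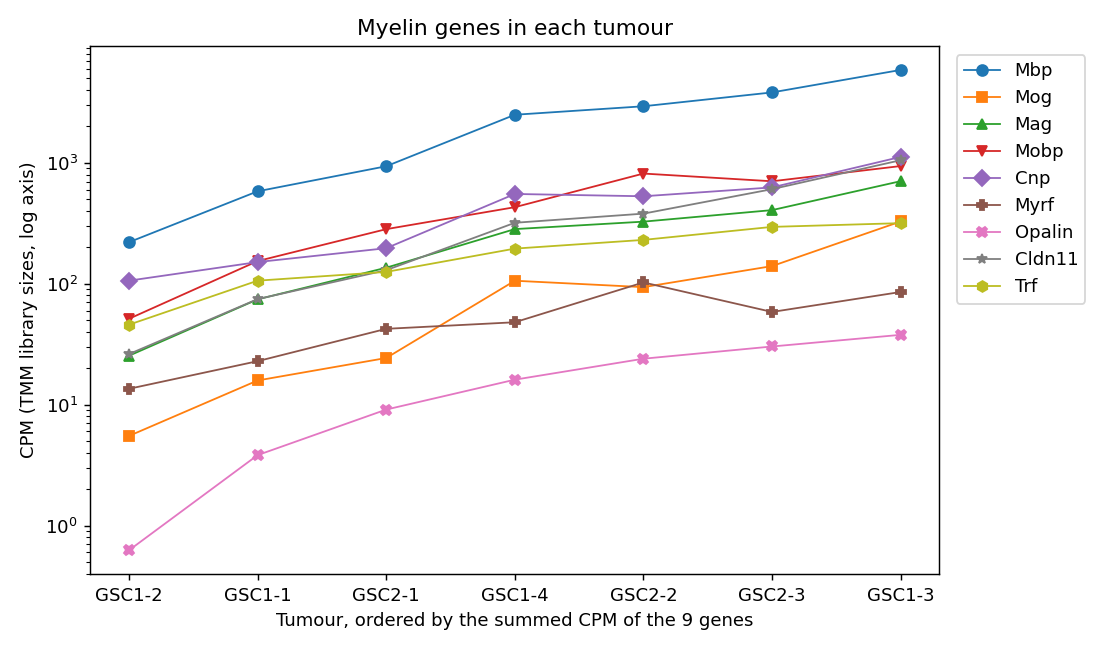
CPM of each of the 9 genes (lines and markers, log axis) in the 7 tumours, which are ordered from left to right by the summed CPM of the 9 genes; the lines only join values of 1 gene. The 9 genes share the same 3 lowest tumours, GSC1-2, GSC1-1 and GSC2-1, and Mbp spans 221 to 5870.1 CPM.

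For all 9 genes, GSC1-2 was the lowest tumour, GSC1-1 the second lowest and GSC2-1 the third lowest. Mbp, Mag, Opalin, Cldn11 and Trf ranked all 7 tumours identically. The summed level of the 9 genes was 1185, 495, 10456 and 4452 CPM in GSC1 and 1884, 5442 and 6693 CPM in GSC2, which corresponded to 0.0498 to 0.95% of all gene counts. The lowest and the highest tumour therefore both belonged to GSC1. Mbp made up 44.6 to 57.2% of the counts on the 9 genes.

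Levels of different genes were compared per kilobase of the longest annotated transcript, which may overstate the length of abundant shorter isoforms, among them those of Mbp. On this scale the mean over 7 tumours was 503 CPM per kilobase for Mbp, 198 for Cldn11, 162 for Cnp, 147 for Mobp, 115 for Mag, 73.1 for Trf, 59.8 for Mog, 9.40 for Myrf and 6.22 for Opalin. Mbp was first in 7 of 7 tumours. The order in the middle was not stable across tumours. Cldn11 exceeded Cnp in 4 of 7, Cnp exceeded Mobp in 5 of 7 and Mag exceeded Trf in 5 of 7. Mog exceeded Myrf in 7 of 7, and Myrf exceeded Opalin in 6 of 7.

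The design compares the lines, and no difference in myelin gene level between GSC2 and GSC1 was detected. With edgeR's quasi-likelihood test and Benjamini-Hochberg adjustment over all 16068 genes, 0 of the 9 genes passed an adjusted p of 0.05, against 0% of all genes tested. At an unadjusted p under 0.05, 0 of the 9 and 4.21% of all genes were called. DESeq2 called 0 of the 9 and 1.19% of all genes, and limma-voom 0 of the 9 and 0.00622% of all genes. None of the 9 had values that did not overlap between the lines, against 5.58% of all genes. The median log2 fold change of GSC2 over GSC1 was 0.16 for the 9 genes, with 7 of 9 above 0, against -0.03 and 46.3% for all genes tested.

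The mean Mbp level was 2293 ± 2586 CPM in GSC1 (SD, n = 4) and 2568 ± 1479 CPM in GSC2 (SD, n = 3), a log2 fold change of 0.16 (SE 1.03). For Mog the means were 114 ± 149 CPM in GSC1 and 86.0 ± 58.2 CPM in GSC2, a log2 fold change of -0.40 (SE 1.26). In both genes the SD within GSC1 exceeded its mean. Cnp averaged 483 ± 470.0 CPM over the GSC1 tumours and 451 ± 225 CPM over those of GSC2, with a log2 fold change of -0.10 (SE 0.84). Mag and Cldn11 had log2 fold changes of 0.09 (SE 1.00) and 0.02 (SE 1.14). The largest change among the 9 was that of Myrf, with means of 42.5 ± 32.2 CPM for GSC1 and 67.8 ± 31.2 CPM for GSC2, a log2 fold change of 0.67 (SE 0.63) with an unadjusted edgeR p of 0.318. Mobp followed at 0.61 (SE 0.88), Opalin at 0.54 (SE 1.11) and Trf at 0.39 (SE 0.62). The adjusted p was 1 for all 9. The standard errors were 0.62 to 1.26 log2 units. These are not limits of detection, and differences larger than them could also have been missed. Myrf, for one, exceeded its error and did not pass.

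Without GSC1-3, GSC1-4 and GSC2-3, the libraries poor in long transcripts, 2 tumours of each line were left. The log2 fold changes of the 9 genes were then all above 0, from 1.22 for Trf to 2.87 for Opalin, against 50.7% of all genes above 0. The GSC1 tumours left, GSC1-2 and GSC1-1, were the lowest and second lowest of all tumours for each of the 9 genes. With all 7 tumours, 7 of the 9 were already above 0, and Mog and Cnp were below. The cause of the shift was not tested. Without the 3 libraries none of the 9 passed, with edgeR adjusted p from 0.183 to 0.334, against 0.348% of all genes. With the mean log2 CPM of 14 neuron markers (the neuron score) as a covariate, the 9 log2 fold changes were also above 0, from 0.48 for Cnp to 1.81 for Opalin, against 57.5% of all genes. Again 0 of the 9 passed, with edgeR adjusted p from 0.139 to 0.710, against 0.268% of all genes. Leaving out single tumours gave log2 fold changes of Mbp between -0.22 and 1.18, with the highest without GSC1-3.

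**Figure D2:**
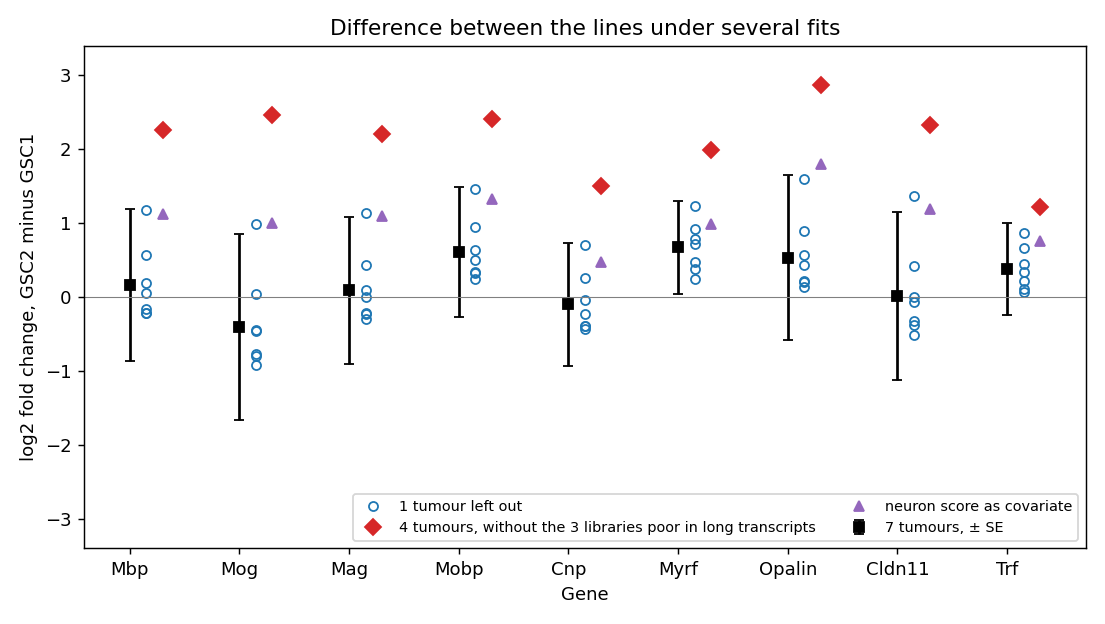
Log2 fold change of GSC2 over GSC1 (y axis) for each of the 9 genes: black squares with SE bars use 7 tumours, blue circles leave out 1 tumour each, red diamonds leave out the 3 libraries poor in long transcripts, and purple triangles have the neuron score as a covariate. The values with 7 tumours lie between -0.40 and 0.67, while the diamonds lie between 1.22 and 2.87. The diamonds set GSC2-1 and GSC2-2 against GSC1-1 and GSC1-2, the tumours lowest in all 9 genes.

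The 9 genes moved together tightly across tumours. Over the 36 pairs, Pearson's r of log2 CPM had a median of 0.979 and ranged from 0.887 for Cnp with Myrf to 0.997 for Mbp with Cldn11. Spearman's rho had a median of 0.964 and ranged from 0.786 to 1.0. All 36 pairs passed an exact two-sided permutation test over all pairings of tumours after Benjamini-Hochberg adjustment over the 36 pairs. Adjusted p in this permutation test was 0.000571 to 0.00595 for r and 0.0013 to 0.048 for rho. The share of all pairs of genes tested that would pass was not computed. With each line's mean subtracted, the median r was 0.986 (0.919 to 0.999), and all 36 pairs passed over 144 arrangements within lines. The relation thus held within lines when both were pooled, and neither line was tested alone. GSC1 weighed more, since Mbp ranged 26.6-fold within GSC1 and 4.08-fold within GSC2.

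Without the 2 tumours farthest from the median of the first gene of a pair, mostly GSC1-1 and GSC1-2, the median r was 0.963 and 30 of 36 pairs passed. The 6 pairs that no longer passed were those of Myrf with Mbp (r 0.67), Mog (0.60), Mag (0.67), Cnp (0.63) and Mobp (0.89), and Mog with Mobp (0.86). The 4 pairs of Myrf with Mbp, Mog, Mag and Cnp had an r of 0.60 to 0.67 without these low tumours, so their call rests on them, while the pairs of Mobp with Myrf and Mog kept an r above 0.86 over 5 tumours. The pairs of Myrf with Opalin, Cldn11 and Trf, which passed, left out GSC1-2 and GSC2-2 instead, so the Myrf pairs were not all tested on the same tumours. The correlation with the mean of the other 8 genes was 0.998 for Mbp and Mag, 0.994 for Cldn11, 0.989 for Trf, 0.985 for Mobp, 0.984 for Mog, 0.981 for Opalin, 0.967 for Cnp and 0.937 for Myrf. Among all genes tested, an r of at least 0.9 with the mean of the 9 genes was reached by 6.57%, and an r of at least 0.9 with Mbp by 7.49%. Few genes tracked Mbp as closely as Cldn11, whose r with Mbp was matched or exceeded by 0.0249% of genes tested, itself included. The share was 0.0311% for Mag, 0.106% for Mog and 4% for Myrf.

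**Figure D3:**
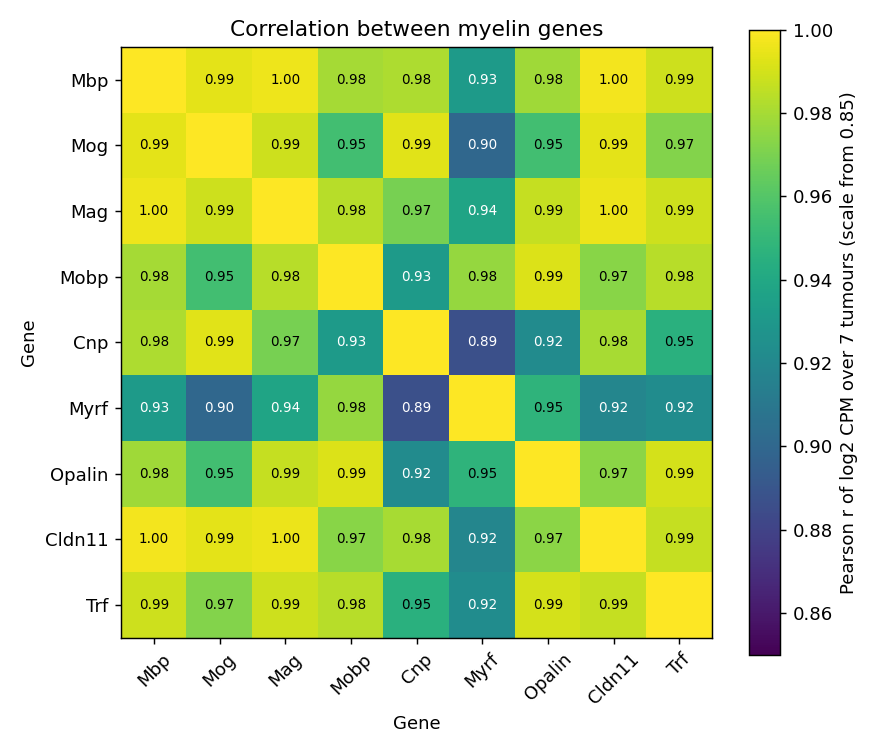
Pearson's r of log2 CPM over 7 tumours for each pair of the 9 genes (colour and printed value, scale from 0.85 to 1). The lowest values lie in the row of Myrf, with 0.887 for Cnp and Myrf, and the highest is 0.997 for Mbp and Cldn11.

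The genes differed by unequal factors between the low and the high tumours. The slope of a gene's log2 CPM on the mean of the other 8 was 1.37 for Mog, 1.35 for Opalin and 1.22 for Cldn11, so these spanned more than the rest. It was 1.11 for Mbp, 1.07 for Mag and 0.96 for Mobp, and 0.77 for Cnp, 0.61 for Trf and 0.60 for Myrf. Slopes under 1 belonged to the genes with the narrower ranges.

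The mix of myelin transcripts was compared between the lines as each gene's log2 CPM minus the mean of the other 8, a difference that does not depend on library scaling. No gene passed an exact two-sided permutation test over 35 splits with adjustment over the 9 genes. The smallest possible p in this design is 0.0286, so a single separated gene could not pass after adjustment. The result therefore does not show that the mix was equal. Cnp came nearest. Its difference from the other 8 was 1.48, 2.46, 1.35 and 1.56 log2 units in GSC1 and 1.08, 1.07 and 1.12 in GSC2. All GSC2 values were below those of GSC1, with a difference of -0.62 (exact permutation p = 0.0571, adjusted 0.343). For Opalin the values were -4.46, -5.68, -4.15 and -4.18 in GSC1 and -3.89, -3.94 and -3.80 in GSC2. The 3 GSC2 values were the highest, with a difference of 0.74 (exact permutation p = 0.0857, adjusted 0.343). Mobp differed by 0.33 (exact permutation p = 0.114, adjusted 0.343), and the other 6 genes had an adjusted p of 1.

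Relative levels of Myrf, Mog, Cldn11 and Mbp did not overlap between the 3 libraries poor in long transcripts and the other 4. The remaining genes overlapped. The relative levels depend on each other, since each is taken against the other 8. The share of all genes tested that would not overlap was not computed, so this does not show a trait particular to these genes. The direction did not follow the length of the longest annotated transcript in all 4 genes. The 3 libraries were also high in myelin RNA, with 10456, 4452 and 6693 CPM summed over the 9 genes, against 495 to 5442 CPM. The slopes given above were over 1 for Mog, Cldn11 and Mbp, which lay higher in these libraries, and under 1 for Myrf, which lay lower. Transcript length and myelin level were thus largely shared by the same libraries, and the part of each was not tested. GSC2-2 was an exception, at 5442 CPM above GSC1-4 in summed level but not poor in long transcripts. Myrf, which has the longest transcript of the 9 at 5674 bases, lay at -2.82, -2.41 and -2.73 relative to the other 8 in GSC1-3, GSC1-4 and GSC2-3, and at -0.87 to -1.59 in the other 4 tumours. Mog, with the shortest transcript at 1704 bases, lay at -0.64, -1.13 and -1.32 in these 3 tumours and at -1.73 to -2.31 in the other 4. Cldn11, the next shortest at 1870 bases, lay at 1.25, 0.67 and 1.06 in the 3 and at 0.20 to 0.54 in the 4. Mbp, whose longest annotated transcript has 4797 bases, lay at 4.04, 4.00 and 4.05 in the 3 and at 3.62 to 3.86 in the 4. Mbp thus lay higher in the 3 libraries, as did the shorter Mog and Cldn11. Which Mbp isoforms were present was not measured. With each library's trend on transcript length removed, Myrf lay at -2.63, -2.25 and -2.44 in the 3 and at -1.12 to -1.80 in the 4. Mog then lay at -0.75, -1.21 and -1.50 in the 3 and at -1.61 to -2.21 in the 4. Cldn11 then overlapped, with 0.59 in GSC1-4 and 0.64 in GSC2-2. Mbp lay further apart than before, at 4.16, 4.10 and 4.25 in the 3 and at 3.50 to 3.71 in the 4. The removal used the same longest annotated length, so it may not suit Mbp. The part of transcript length in these relative levels was not tested beyond this. Removing the trend left the median r of the pairs at 0.979, with all 36 passing and r of 0.927 to 0.996 for the pairs with Myrf. Mag and Mbp varied least relative to the rest, with an SD over the 7 tumours of 0.15 and 0.19 log2 units, against 1.64 and 1.69 for their levels.

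**Figure D4:**
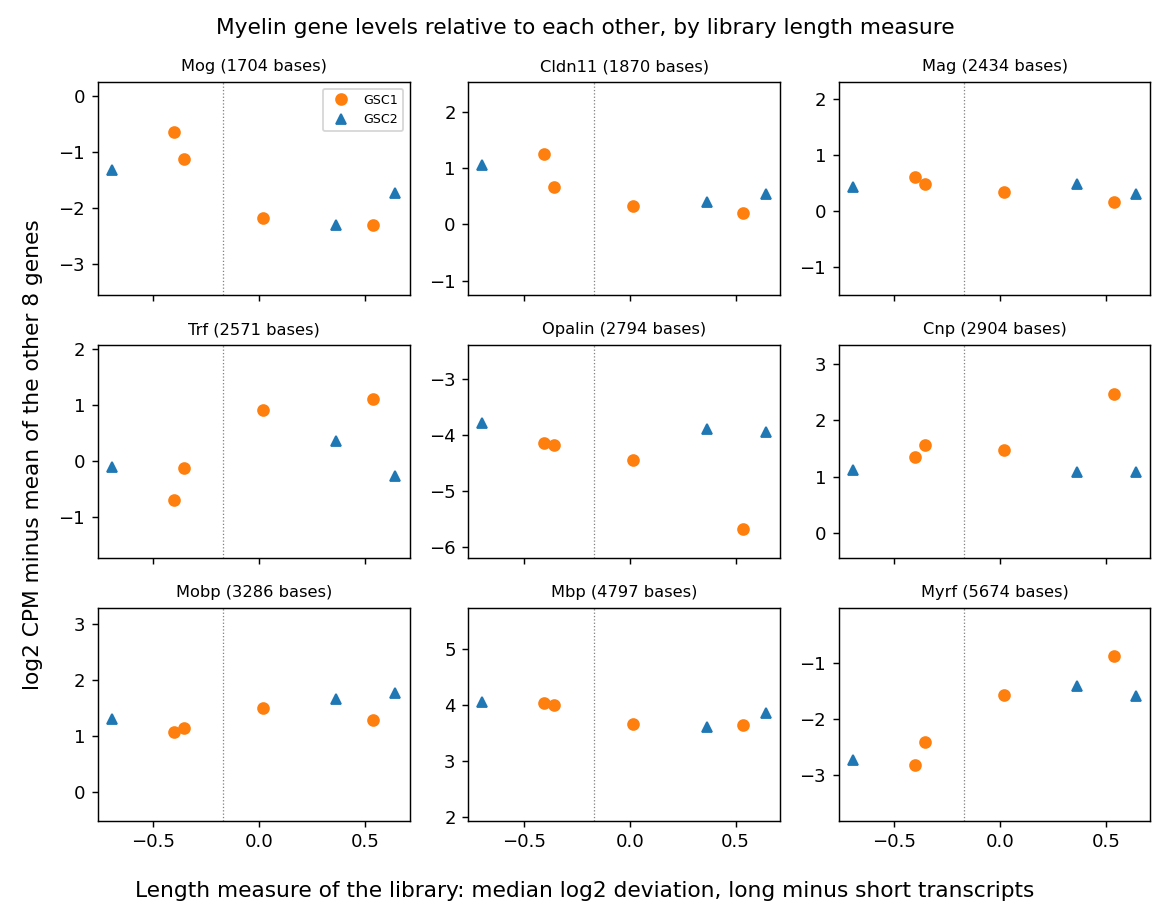
Log2 CPM of each gene minus the mean of the other 8 (y axis, same span in every panel, different centre) against the library's length measure (x axis), with GSC1 tumours as orange circles and GSC2 tumours as blue triangles. The dotted line separates the 3 libraries poor in long transcripts (left) from the other 4; Myrf lies between -2.82 and -2.41 on the left and between -1.59 and -0.87 on the right.

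Other genes of mature oligodendrocytes followed the 9. Of 38 tested, 0 passed between the lines by edgeR's adjusted p and 0 had an unadjusted p under 0.05, 16 had a log2 fold change above 0 and 22 below, and the median was -0.04. Their median r with the mean of the 9 was 0.98, and 32 of 38 reached 0.9. Among the most abundant, Mal, a myelin raft protein, measured 45.1, 21.4, 764 and 244 CPM in the GSC1 tumours and 81.8, 304 and 408 CPM in those of GSC2. Tubb4a, a tubulin of oligodendrocytes and neurons, spanned 56.8 to 1136 CPM, Plekhb1 43.4 to 1165 CPM and Qdpr, a pteridine reductase, 58.9 to 580.5 CPM. The 4 with the smallest p between the lines were Ninj2 (log2 fold change 1.25, SE 1.08), Tppp3 (-1.07, SE 0.97), Evi2a (0.27, SE 0.39) and Nkx6-2 (0.55, SE 0.82), and all 4 had an edgeR adjusted p of 1. The 6 genes below an r of 0.9 were Anln at -0.81, Adamts4 at -0.75, Nkain2 at 0.18, Bin1 at 0.64, Gsn at 0.81 and Tppp3 at 0.89. Anln, which also encodes the cytokinesis protein anillin, was at 79.2 to 323 CPM and highest in GSC1-2, the tumour lowest in myelin transcripts.

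The 8 genes most like the 9, by r of log2 CPM with their mean over the 7 tumours, were Insc (0.998), Gpr37 (0.997), Tmem88b (0.997), Ermn (0.996), Pllp (0.995), Prr18 (0.995), Dbndd2 (0.994) and Pigz (0.993). Gpr37, Tmem88b, Ermn and Pllp were already on the list of mature oligodendrocyte genes. Gpr37, a receptor of oligodendrocytes, was at 17.7, 6.87, 206 and 95.7 CPM in GSC1 and 32.9, 108 and 117 CPM in GSC2. Insc, a cell polarity adaptor, was at 2.20, 1.07, 14.9 and 7.24 CPM in GSC1 and 4.22, 9.36 and 11.03 CPM in GSC2. Both had the same 3 lowest tumours as the myelin genes.

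Factors that set oligodendrocyte fate followed the 9 to differing degrees. Of 13 tested, 0 passed (1 at an unadjusted edgeR p under 0.05), 11 were above 0 and 2 below, with a median log2 fold change of 0.41. Their median r with the mean of the 9 was 0.61, and 3 reached 0.9. Those were Olig1 (0.97), Sox10 (0.94) and Sox8 (0.91). Olig1 was at 74.4, 50.6, 225 and 136 CPM in GSC1 and 92.1, 188 and 265 CPM in GSC2. Olig2, a lineage factor that progenitors and glioma cells also express, was at 53.9, 45.5, 55.8 and 38.1 CPM in GSC1 and 45.4, 63.4 and 76.2 CPM in GSC2, a range of 2.00-fold beside 26.6-fold for Mbp. Tcf7l2, a Wnt pathway factor of differentiating oligodendrocytes, had the smallest p of the list, with a log2 fold change of 1.98 (SE 0.77), an unadjusted edgeR p of 0.0362 and an adjusted p of 1. It was at 97.4 CPM in GSC2-2 and 5.64 to 24.6 CPM in the other 6 tumours. Nkx2-2 had a log2 fold change of 0.98 (SE 0.48) and Zfp488 one of 0.57 (SE 0.43). The chromatin factors Smarca4 (67.0 to 348 CPM) and Yy1 (50.3 to 152 CPM) were highest in GSC1-2, and Yy1 had an r of -0.94 with the mean of the 9.

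Earlier stages of the lineage followed the 9 less closely than the other mature genes, whose median r with their mean was 0.98. Of 11 genes of newly formed oligodendrocytes, 0 passed (1 at an unadjusted edgeR p under 0.05), 6 were above 0 and 5 below. The median log2 fold change was 0.08. The median r with the mean of the 9 was 0.91, and 6 had an r of at least 0.9. Fyn, a kinase that acts in early myelination, was at 115 to 149.7 CPM in GSC1 and 195 to 216 CPM in GSC2, a log2 fold change of 0.57 (SE 0.20) with an unadjusted edgeR p of 0.0208 and an adjusted p of 1. Bcas1, a marker of premyelinating cells, was at 52.4, 22.8, 138 and 91.2 CPM in GSC1 and 105, 171 and 144 CPM in GSC2, a log2 fold change of 0.88 (SE 0.55). Casr (-2.26, SE 1.12) and Rras2 (-0.40, SE 0.22) lay below 0. Of 13 progenitor genes, 0 passed (1 at an unadjusted edgeR p under 0.05), 8 were above 0 and 5 below, with a median of 0.39. Their median r was 0.79, with 5 at 0.9 or more and 4 below 0. The 5 were Bcan (0.98), C1ql1 (0.93), Gpr37l1 (0.917), Matn4 (0.915) and Cspg5 (0.91). Pdgfra, the growth factor receptor of progenitors, was at 57.7 to 71.1 CPM in GSC1 and 53.5 to 92.8 CPM in GSC2, with an r of -0.11 to the mean of the 9. Cspg4 (r -0.70) and Vcan (r -0.87), both proteoglycans, were highest in GSC1-2, at 40.7 and 279 CPM. Chst3 had the smallest p of the progenitor list, at a log2 fold change of 1.22 (SE 0.45), an unadjusted edgeR p of 0.0277 and an adjusted p of 1.

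Schwann cells, the myelinating cells of peripheral nerves, also express Mbp, Mag and Cnp. Among their markers, Pmp2, a fatty acid binding protein of peripheral myelin, was at 0 to 0.143 CPM and Ncmap, a myelin-associated protein of Schwann cells, at 0 to 0.381 CPM. Others were higher, with Drp2 at 4.82 to 27.8 CPM, Prx at 2.24 to 14.3 CPM and Egr2 at 7.22 to 33.3 CPM. Their r with the mean of the 9 myelin genes was 0.86 for Drp2, -0.69 for Prx and -0.81 for Egr2. Of the 12 genes of this list, 9 were tested and 0 passed (1 at an unadjusted edgeR p under 0.05). The summed level of the list was 113 to 208 CPM in GSC1 and 141 to 189.9 CPM in GSC2, with Pmp22, which is not limited to Schwann cells, at 46.1 to 103 CPM. Gldn, a node of Ranvier protein, was at 2.90 to 9.30 CPM in GSC1 and 11.2 to 13.9 CPM in GSC2, a log2 fold change of 1.05 (SE 0.40) with an unadjusted edgeR p of 0.0331 and an adjusted p of 1.

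Sterol synthesis enzymes, which supply cholesterol to the growing myelin membrane and are active in astrocytes too, followed the 9 only partly. Of 19 tested, 0 passed (1 at an unadjusted edgeR p under 0.05, Ebp), 0 were above 0 and 19 below, with a median log2 fold change of -0.61. Their median r with the mean of the 9 was 0.74, and 1 gene, Mvk, reached 0.9. Idi1, an isomerase early in the pathway, measured 5.74, 8.31, 63.9 and 39.0 CPM in the GSC1 tumours and 7.68, 13.9 and 13.5 CPM in those of GSC2. The 2 tumours high in Idi1 were GSC1-3 and GSC1-4, while GSC2-2 and GSC2-3, also high in Mbp, were not.

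Markers of other brain cells also differed widely between tumours. The 12 astrocyte genes summed to 2837, 2073, 15884 and 13647 CPM in GSC1 and 3043, 7898 and 8333 CPM in GSC2. The 14 neuron genes summed to 1574, 655, 6260.4 and 5599 CPM in GSC1 and 1118, 3086 and 2619 CPM in GSC2. Both were lowest in GSC1-2 and highest in GSC1-3. Of the 12 choroid plexus genes, Folr1 and Slc4a5 were at 0 in GSC1-2 and Kcne2 in GSC1-1 and GSC1-2; the list summed to 14.4 to 56.6 CPM in GSC1-1 to GSC1-3 and to 2183 to 9286 CPM in the other 4 tumours. The 14 mitosis genes ran the other way, at 1413, 2013, 342 and 506 CPM in GSC1 and 1733, 1042 and 939 CPM in GSC2. The 10 microglia genes summed to 757 to 1294 CPM in GSC1 and 1100.0 to 1539.6 CPM in GSC2, a far narrower range.

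Each of the 9 genes was correlated over the 7 tumours with the mean log2 CPM of 5 marker lists, 45 relations in all, by exact permutation with adjustment over the 45. For Pearson's r, 32 passed. All 9 genes passed with the astrocyte score (r 0.845 to 0.972), the progenitor score (0.873 to 0.967) and the neuron score (0.811 to 0.907). For the neuron score 0 of the 9 passed by Spearman's rho, and 4 passed with line means subtracted. With the mitosis score r was -0.886 to -0.647 and 5 of 9 passed, and with line means subtracted all 9 passed, at -0.989 to -0.942. With the choroid plexus score r was 0.520 to 0.642 and 0 passed. The share of all genes tested that would pass with these scores was not computed. The counts therefore do not show a trait particular to the 9 genes. These relations rest on few tumours. Without GSC1-2, 0 of the 45 passed, without GSC1-1, 21, and without GSC2-1, 19. Without the 2 tumours farthest from the median of a gene, the median r was 0.83 for the astrocyte, 0.70 for the progenitor, 0.65 for the neuron, -0.37 for the choroid plexus and -0.75 for the mitosis score. The part of normal brain content in the myelin gene levels was not tested.

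**Figure D5:**
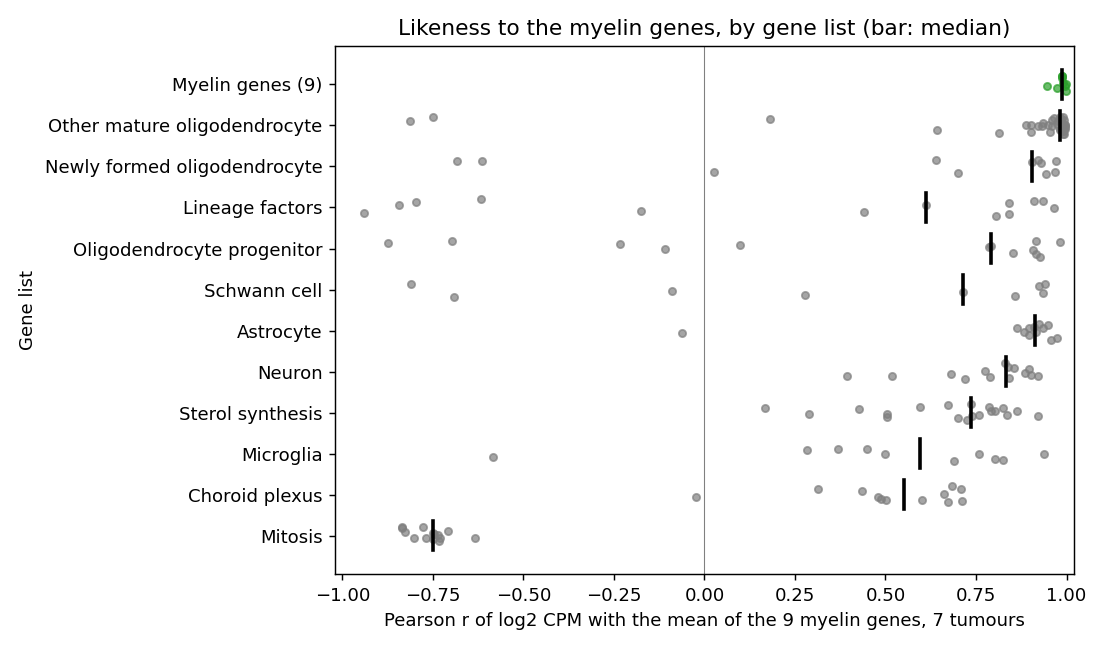
Pearson's r over 7 tumours between each gene's log2 CPM and the mean of the 9 myelin genes (x axis), with 1 point per gene, by gene list (y axis), and a bar at each list's median; the 9 genes are part of their own mean. The median is 0.98 for other mature oligodendrocyte genes, 0.91 for astrocyte genes, 0.83 for neuron genes and -0.75 for mitosis genes.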

How the data were processed

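Per the labels' protocols, total RNA of 7 tumours went into libraries of the NEBNext Ultra type. The authors deposited a table of raw counts for each tumour, keyed by Ensembl gene. The submitters' processing notes list TopHat2 2.0.11 and HTSeq, and 2 builds (mm9, dm3) with no role for either. No strand setting is given in the sources used here. Reads of antisense partners therefore cannot be told apart. Groups and replicate numbers came from the sample titles. No label says that equal numbers pair tumours.

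Each table held 37620 identifiers, of which 32897 matched a symbol in a later annotation, and the rest carried 0.485% of counts. Summary lines were left out. No 2 libraries agreed within sampling noise, the smallest chi-square over degrees of freedom being 66.5.

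The main test was that of edgeR 4.0.16 under R 4.3.3 (TMM, filterByExpr, robust quasi-likelihood test, Benjamini-Hochberg over 16068 genes, threshold 0.05). The alternatives used DESeq2 1.42.0 and limma 3.58.1. CPM are counts over TMM-scaled library sizes, and log2 CPM have a prior count of 2. Correlations and splits were tested exactly in Python 3.11.15 with scipy 1.17.1. The tests were also run on simulated counts.

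The 9 genes and the 16 marker lists were chosen with earlier results of these data known, and a list of 6 stem cell genes was added after seeing the data. The lists held 227 genes, of which 224 were in the tables. Besides the 9, the rule named the 8 genes most like their mean (at least 5 CPM), up to 4 genes per list by smallest p and, for the lists of the oligodendrocyte lineage and Schwann cells, up to 4 by level. Not all of these are printed, and genes named for a low or negative correlation, a summed list or a zero value were chosen after their values were seen. Some results are not reported here.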

Additional observations from a re-analysis of the deposited data

Results flagged for a closer look

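The log2 ratio of Opalin to Mbp in GSC1 had 1 tumour far from the others. It was -8.29 in GSC1-2 and -7.22, -7.28 and -7.27 in GSC1-1, GSC1-3 and GSC1-4, so the gap made up 0.948 of the range of the 4, above Dixon's critical value at the 95% level. Opalin had 17 counts in GSC1-2. In all, 26 groups of 4 values were examined, and chance flags about 1 in 20.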

How the results depend on the processing

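The count of 0 genes called between the lines became 1 with no filter on low counts, 192 with DESeq2, 1 with limma-voom, 43 with the neuron score as a covariate and 55 without the 3 libraries poor in long transcripts. None of the 9 myelin genes passed under any alternative run. The log2 fold change of Cldn11 was -0.030 with RLE factors and with DESeq2 and -0.025 with a mean of at least 5 CPM. Those of Mog and Cnp turned positive, to 0.77 and 0.35 with limma-voom, to 1.00 and 0.48 with the neuron score, and to 2.46 and 1.497 without the 3 libraries. With single tumours left out, the log2 fold changes ranged from -0.22 to 1.18 for Mbp, -0.92 to 0.98 for Mog, -0.29 to 1.14 for Mag, -0.43 to 0.70 for Cnp and -0.51 to 1.37 for Cldn11. Mobp, Myrf, Opalin and Trf stayed above 0 in all 17 alternatives. The fit without the 3 libraries left in GSC1 only the tumours lowest in all 9 genes. The cause of these shifts was not tested. The lines share replicate numbers, and the fit with the replicate number as a block called 0 genes, with log2 fold changes of 1.006 for Mog and 0.60 for Cnp. Tumours with equal numbers correlated at 0.58, -0.31 and 0.41 in their deviations, and 1 of 3 correlated best with its own number, so the numbers were not taken as pairs.

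Relative to the other 8 genes, the line difference of Mbp was -0.0050 with a prior count of 0.25 and -0.028 with the length trend removed (an alternative chosen after seeing the data), where that of Myrf was -0.037. With single tumours left out these differences ranged from -0.10 to 0.11 for Mbp, -0.47 to 0.086 for Mog, -0.071 to 0.080 for Mag, -0.14 to 0.27 for Cldn11 and -0.29 to 0.42 for Myrf. With single tumours left out, all 36 pairs still passed, with a median r of 0.972 to 0.987, and the number of relations to marker lists that passed was 0 to 31. Among the 9 genes, Opalin in GSC1-2 rests on the fewest counts (17), and some list genes named above rest on fewer, such as Ninj2 (3 in GSC1-2), Casr (3 in GSC2-1) and Nkain2 (1 in GSC1-4).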
